A study of Mus musculus with 6 samples.

Results

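Tumour neutrophils are described here as the 950 cells, of 40418 kept cells in 6 droplet libraries, that carried the transcripts of the neutrophil granule proteins S100a8 and S100a9 at a high share. Cells were kept from 200 genes upward when mitochondrial genes made up no more than 15% of their UMIs. Members were chosen by measured values: a member had at least 2% of its UMIs (counted molecules) from S100a8 and S100a9, at least 1 UMI of Csf3r, Cxcr2 or Retnlg, a share of the macrophage genes C1qa, C1qb and C1qc under 1%, and no UMI of Cd3d, Cd3e or Cd3g. These 11 genes chose the members, so their levels against other cells are a description and carry no test. By library the members numbered 35 in intact KO mice, 59 in intact WT mice, 303 with KO marrow in KO hosts, 169 with KO marrow in WT hosts, 108 with WT marrow in KO hosts and 276 with WT marrow in WT hosts.

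The mice were female and carried mammary tumours of the Py8119 line, which had been injected, and each of the 6 libraries holds the live CD45-positive (blood-derived) cells sorted from such tumours. Intact mice were KO or WT. The labels write only KO, and the series title names MTDH, so KO is read here as loss of Mtdh; they do not state the allele. In the 4 chimeras, irradiated KO or WT hosts received KO or WT marrow, tumour cells were injected 8 weeks later and tumours grew for 4 weeks. The chimeras are written below as marrow-to-host, so that KO-to-WT is KO marrow in a WT host. Each group holds 1 library, the labels do not say how many mice it came from, and cells that a host retained after irradiation cannot be told from donor cells except through Mtdh itself.

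Neutrophils are short-lived granulocytes made in the bone marrow under the control of the cytokine receptor Csf3r, and they leave the blood along chemokine gradients read by Cxcr2. They are filled with granule proteins while still in the marrow, so a neutrophil in a tissue holds little RNA and makes mainly cytokines, chemokines and response genes. Interferon-gamma, released by T and NK cells, acts through factors such as Irf1 to induce guanylate-binding proteins and antigen-presentation genes, while type I interferon induces genes such as Isg15, Rsad2 and the Ifit family. Tumour neutrophils are known for forms that restrain T cells and for forms that respond to interferon.

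The results turn on interferon-induced genes and on heat shock genes, and stretches of 4 of their promoters are shown to let the control elements be seen. They were read from the RefSeq promoter windows of build GRCm38.p6, and the 250 bases before each start were searched on both strands. Capitals mark the match: TTCNNNGAA, the gamma-activated sequence of interferon-gamma target genes, in Irf1 (chr11:53769909-53769947, plus strand), the interferon-stimulated response element, searched as GAAA units spaced by 2 bases, in Gbp2 (chr3:142620589-142620628, plus strand, read there on the opposite strand), and GAANNTTC, a heat shock element of paired units that heat shock factors bind, in Hspa1a (chr17:34972238-34972275, minus strand) and Hspa1b (chr17:34959320-34959357, minus strand).
Irf1: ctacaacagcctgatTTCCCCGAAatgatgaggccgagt
Gbp2: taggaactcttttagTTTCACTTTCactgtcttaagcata
Hspa1a: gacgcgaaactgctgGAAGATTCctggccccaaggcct
Hspa1b: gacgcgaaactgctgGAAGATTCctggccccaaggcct

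The Hspa1a and Hspa1b stretches are the same letters, as these neighbouring genes are near-identical copies whose reads the counting can split between them. Of 19 genes looked up after their values were seen, 15 had a window, and Hsp90aa1, Hspa8 and Ly6a were among those without one. Among the 11 interferon-induced genes with a window, the interferon-stimulated response element was in 7 (Cxcl10, Gbp2, Gbp5, Gbp7, Isg15, Rsad2 and Socs1) and TTCNNNGAA in 3 (Gbp5, Gbp7 and Irf1). The paired heat shock units GAANNTTC were also in 3 of these interferon-induced genes (Gbp7, Psmb9 and Tap1) and TTCNNGAA in 1 (Isg15). Of the 3 heat shock genes with a window, Hspa1a and Hspa1b held GAANNTTC and Dnajb1 held none of the motifs. Of the 32851 promoter windows, 2.98% held that element, 7.02% TTCNNNGAA, 6.69% GAANNTTC and 7.17% TTCNNGAA, the reverse order of the paired units. The longer heat shock element, in which 1 more unit follows the pair at the same spacing, was in 0.466% of windows and in none of these genes. A match is a string of letters and no evidence of binding.

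The libraries held 5964 to 8343 barcodes, and the members' median depth was 2043 to 3215 UMIs per cell against 11165 to 19420 in the other kept cells. No member barcode occurred in more than 1 library. The intact libraries stood apart in 3 ways: they were processed with another version of Cell Ranger, they held the fewest neutrophils, and a few very large cells carried much of their RNA. Cells over 10000 UMIs numbered 4 in intact KO and 2 in intact WT, with 55.7% and 22.9% of those libraries' member UMIs. The 4 in intact KO were of a progenitor type and held 5229 of the 5230 UMIs of Elane, Prtn3, Camp, Ngp, Ltf, Fcnb and Ms4a3, genes of granules filled in the marrow; Ngp, for instance, reached 12832 CPM there (UMIs scaled to a library's member total of 1000000) and at most 24.4 elsewhere. The largest member of intact WT had 49218 UMIs, and that library held 68 UMIs of the epithelial keratin Krt8 and 37 of Krt18. The alternative without cells over 10000 UMIs, chosen after seeing the data, is given where it bears on a value.

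The label held up against markers that the rule did not use. All 10 of Hdc, G0s2, Clec4d, Clec4e, Il1r2, Mmp8, Mmp9, Stfa2l1, Trem1 and Acod1 were higher in members than in macrophages and than in monocytes of the same library, in 6 of 6 libraries. Their mean level in members was 6.52-fold (Mmp8, the neutrophil collagenase) to 181-fold (G0s2, an inhibitor of fat breakdown) that in the other kept cells, after adding 10 CPM to both. By UMIs, the members' most abundant transcripts were S100a9, S100a8, the iron store Fth1, the nuclear RNA Malat1, the neutrophil-attracting chemokine Cxcl2, the cytokine Il1b, Tmsb4x, Gm42418, the granule proteoglycan Srgn and the transcription factor Cebpb. Levels throughout are CPM, from counts of 3' ends, and so do not scale with transcript length.

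Cxcl2 was 5448 in intact KO, 14550.3 in intact WT, 21805 in KO-to-KO, 28413 in KO-to-WT, 20506 in WT-to-KO and 27839 in WT-to-WT. Il1b was 5933 in intact KO, 13929.5 in intact WT, 16331 in KO-to-KO, 14608 in KO-to-WT, 18324 in WT-to-KO and 11610.2 in WT-to-WT. For both genes the lowest level was in intact KO. Without cells over 10000 UMIs intact KO held 11782 of Cxcl2 and 13385 of Il1b.

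At the edge of the rule, the 129 members with an S100a8 and S100a9 share of 2 to 3% stand beside 149 cells left out at 1 to 2%. Over libraries Hdc, the histamine-forming enzyme, ran from 1022 to 3530 CPM inside and from 686 to 2991 outside. A further 93 cells were left out for lack of a Csf3r, Cxcr2 or Retnlg UMI, 45 for a Cd3 UMI and 14 for their C1q share. Markers of other cells within the members summed to 3788 to 7627 CPM for 10 macrophage genes, 438 to 1126 for 7 monocyte genes, 38.4 to 102 for 5 B cell genes, 5.81 to 82.0 for 7 dendritic cell genes, 4.80 to 60.8 for 11 T and NK genes and 0 to 459 for 7 mesenchymal or tumour genes. The mast cell and basophil sum was at most 2.83, and of the 4 eosinophil genes Epx, Prg2 and Il5ra were at 0 in every library while the chemokine receptor Ccr3 ran from 0 to 14.2. C1q genes in members stood at 5.70% to 10.9% of their level in macrophages and the other macrophage markers at 11.99% to 17.3%, and these fractions are used below as the range of macrophage RNA that members may carry. The rule kept only members with a C1q share under 1%, so it limits the C1q fraction from above. The other macrophage markers were not used by the rule.

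Neutrophils were 0.498% of kept cells in intact KO (exact 95% binomial interval 0.347% to 0.692%), 0.828% in intact WT (0.631% to 1.07%), 3.72% in KO-to-KO (3.32% to 4.16%), 2.88% in KO-to-WT (2.46% to 3.34%), 1.88% in WT-to-KO (1.54% to 2.26%) and 4.25% in WT-to-WT (3.77% to 4.77%). The intervals cover counting error only. All 4 transplanted libraries lay above both intact ones, and transplantation coincides with the software version, so these cannot be told apart. Within the chimeras the highest shares of kept cells were those in which marrow and host had the same genotype. This order depended on the cells counted. With macrophages left out of the kept cells, WT-to-WT stayed highest but KO-to-KO lay below KO-to-WT, with overlapping intervals.

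**Figure D1:**
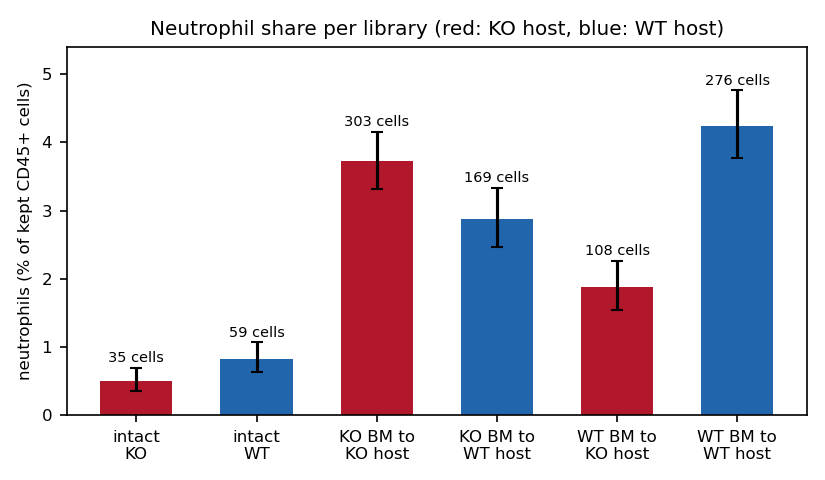
Share of kept CD45-positive cells that met the neutrophil rule, in percent, for each of the 6 libraries; bars start at 0, whiskers are exact 95% binomial intervals and the number above each is its member count. The matched chimeras, at 3.72% and 4.25%, are above the mixed ones, at 2.88% and 1.88%, and all 4 are above the intact libraries.

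The share did not differ by host or marrow genotype beyond the spread among all 6 libraries. The test ignored the pairs, so the gap between intact and transplanted libraries is part of that spread. The log2 ratio of KO over WT host was -0.73 for the intact pair, 0.37 under KO marrow and -1.18 under WT marrow, with a mean of -0.51 (exact permutation test over the 20 assignments, two-sided, p = 0.6). For marrow genotype it was -0.73 in the intact pair, 0.99 in KO hosts and -0.56 in WT hosts, with a mean of -0.10 (p = 0.9 in the same exact permutation test). With 3 libraries against 3 the smallest p this design allows is 0.1.

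Mtdh, the gene that the KO removes, was 9.16 in intact KO, 102 in intact WT, 5.65 in KO-to-KO, 12.2 in KO-to-WT, 64.8 in WT-to-KO and 41.8 in WT-to-WT. The 3 libraries with KO marrow or KO mice all lay below the 3 with WT marrow or WT mice, as 2.96% of all genes did, while 2.51% lay above, so the values followed the label of the marrow and not that of the host. The adjusted p did not pass (marrow genotype, edgeR quasi-likelihood test, log2 -2.73, SE 0.47, adjusted p = 0.343), with 2 to 6 UMIs behind each KO value and 27 to 36 behind each WT value. In intact WT 16 of the 27 UMIs came from 1 cell, and without the 5 cells with most Mtdh that library held 15.1. In the 4 transplanted libraries alone it passed (log2 -2.57, edgeR adjusted p = 4.30e-04). Snd1, the binding partner of Mtdh, was 54.9 in intact KO, 90.3 in intact WT, 17.0 in KO-to-KO, 10.2 in KO-to-WT, 9.60 in WT-to-KO and 4.65 in WT-to-WT. It was higher in both intact libraries than in all 4 chimeras, and it did not differ by marrow genotype beyond the spread between pairs (edgeR, log2 0.22, SE 0.63, adjusted p = 1).

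Interferon-gamma type genes stood high in KO-to-KO neutrophils, the chimera in which both marrow and host were KO. Gbp2, a guanylate-binding protein, was 146 in intact KO, 71.5 in intact WT, 1228 in KO-to-KO, 58.9 in KO-to-WT, 57.6 in WT-to-KO and 45.3 in WT-to-WT. Irf1, the transcription factor that relays interferon-gamma, was 128 in intact KO, 94.1 in intact WT, 649 in KO-to-KO, 73.2 in KO-to-WT, 62.4 in WT-to-KO and 72.0 in WT-to-WT. For both genes KO-to-KO lay above every other library, and the lower 5 libraries overlapped between genotypes.

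Gbp5, which promotes inflammasome assembly, was 27.5 in intact KO, 37.6 in intact WT, 297 in KO-to-KO, 2.03 in KO-to-WT, 16.8 in WT-to-KO and 4.65 in WT-to-WT. Ly6a, a surface protein known as Sca-1, was 32.0 in intact KO, 11.3 in intact WT, 242 in KO-to-KO, 14.2 in KO-to-WT, 19.2 in WT-to-KO and 8.13 in WT-to-WT. Of the 30 interferon genes listed, all 30 were higher in KO-to-KO than in KO-to-WT, and 9 were at least 2-fold above every other library (10 CPM added), among them Gbp2, Irf1, Gbp5, Gbp7, Igtp, Irgm1, Zbp1 and Ly6a. Over all 4932 genes tested that share was 0.588%. The 2-fold rule was chosen after the values were seen, so these counts describe 1 library and carry no test. Without cells over 10000 UMIs, 5 of the 30 passed it (Gbp2, Irf1, Gbp5, Gbp7 and Ly6a), against 0.243% of all genes.

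The other library in which marrow and host were both KO was intact KO. When cells over 10000 UMIs were left out, among them its 4 progenitor-type cells and 2 cells of intact WT, intact KO held 331 of Gbp2, 259 of Irf1, 103 of Gbp7 and 197 of Zbp1, each the second highest of the 6 libraries. Intact WT held 53.7 of Gbp2, 48.8 of Irf1, 24.4 of Gbp7 and 34.2 of Zbp1 under the same filter, against 71.5 of Gbp2 and 94.1 of Irf1 with all its members, so the filter widened the gap in this pair. The intact KO values rested on few cells. With all 35 members there, the 5 cells with most held 26 of 32 Gbp2 UMIs and 17 of 28 Irf1 UMIs.

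Many KO-to-KO neutrophils carried these genes. Members with at least 1 Gbp2 UMI numbered 9 of 35 in intact KO, 7 of 59 in intact WT, 137 of 303 in KO-to-KO, 20 of 169 in KO-to-WT, 20 of 108 in WT-to-KO and 26 of 276 in WT-to-WT. The 5 cells with most Gbp2 held 18.8% of its UMIs in KO-to-KO, and 83 KO-to-KO cells held both Gbp2 and Irf1, 60.6% of those with Gbp2 and 61.5% of those with Irf1. With each cell thinned to 1000 UMIs, which left out 16 shallower members (1 in intact WT, 8 in KO-to-KO, 2 in KO-to-WT and 5 in WT-to-WT), Gbp2 was found in 14.3% in intact KO, 5.17% in intact WT, 33.6% in KO-to-KO, 6.59% in KO-to-WT, 5.56% in WT-to-KO and 3.32% in WT-to-WT. In T cells thinned alike the share was 2.30% to 6.24%. The KO-to-KO and intact KO shares lay above that range and the other 4 within it or, at 6.59%, just over it. The T cells' median depths before thinning were 5160.5 to 7558 UMIs.

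Macrophages of the same libraries were also highest in KO-to-KO. Macrophage Gbp2 was 289 in intact KO, 33.5 in intact WT, 413 in KO-to-KO, 40.7 in KO-to-WT, 52.8 in WT-to-KO and 25.4 in WT-to-WT. In KO-to-KO the neutrophil level was above the macrophage level. In intact KO the neutrophil level was below the macrophage level with all members, and above it when the progenitor-type cells were left out. Macrophage RNA in KO-to-KO members, at the fractions given above, would bring 25.8 to 50.8 of the 1228 CPM. The same bound was 14.8 to 29.1 of 649 for Irf1 and 10.6 to 20.9 of 236 for Tap1, the peptide transporter. Cxcl9, a chemokine for T cells, was 41.2 in intact KO, 22.6 in intact WT, 349 in KO-to-KO, 12.2 in KO-to-WT, 16.8 in WT-to-KO and 3.49 in WT-to-WT, and macrophage RNA would bring 141 to 279 of the KO-to-KO value. Ly6a was similar in this respect, with 59.4 to 117 of 242.

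**Figure D2:**
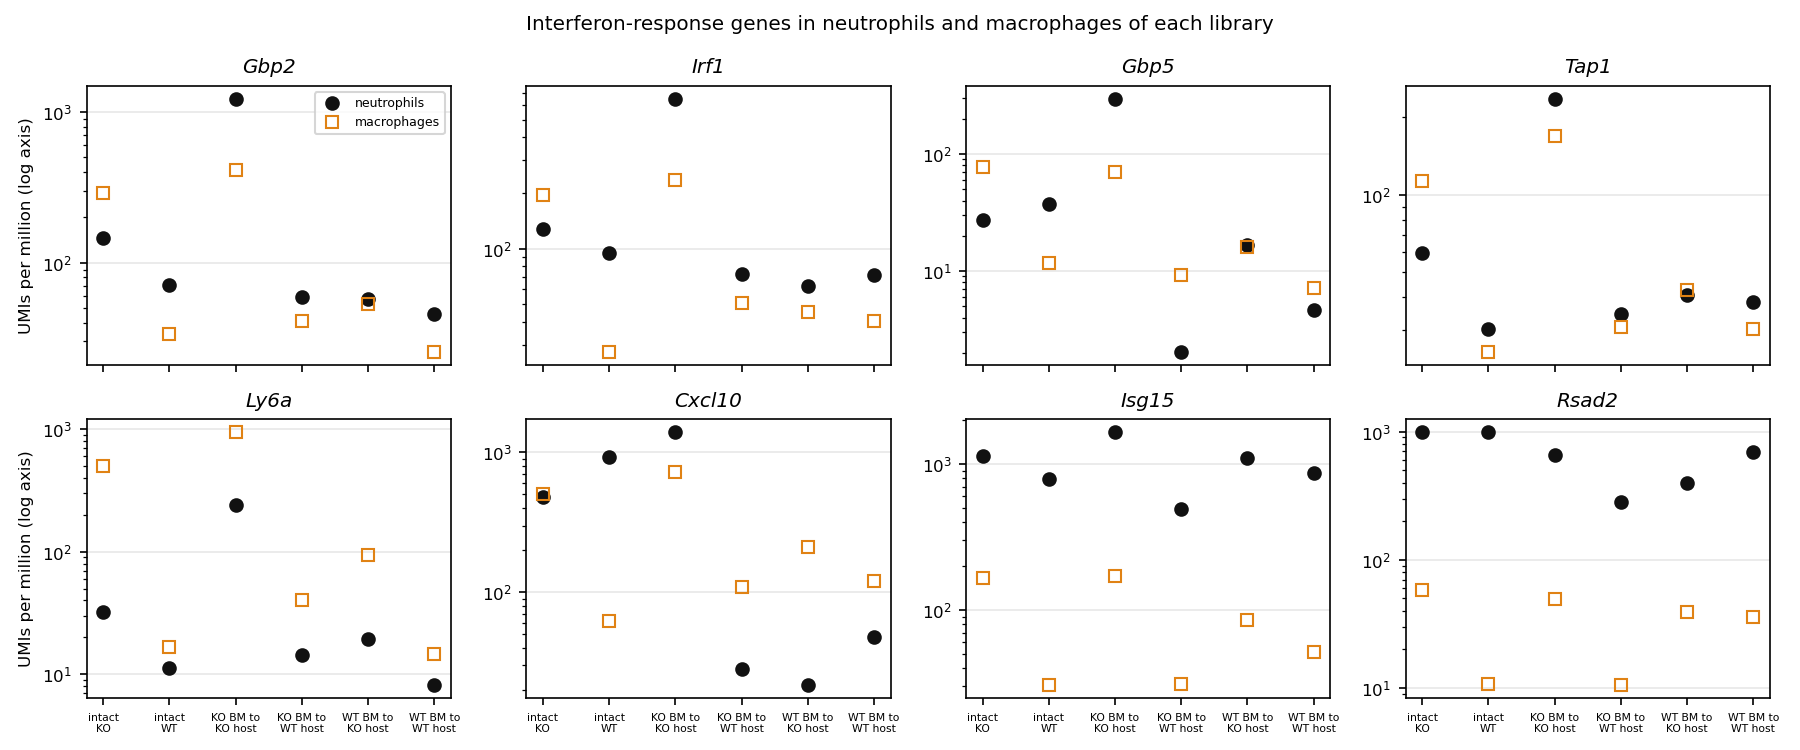
CPM of 8 interferon-induced genes (log axis) in each library, filled circles for neutrophils and open squares for macrophages. Neutrophil Gbp2 reaches 1228 and Irf1 649 in the library with KO marrow in KO hosts, above the macrophages of that library, while Isg15 and Rsad2 are high in neutrophils of all 6 libraries.

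KO-to-KO held the highest level of 21 of the 30 interferon genes, and of 16 without cells over 10000 UMIs (11.7% of all genes). Among genes better known for type I interferon, Isg15 and Rsad2 are given as examples. Isg15, a ubiquitin-like protein, was 1126 in intact KO, 794 in intact WT, 1659 in KO-to-KO, 489.7 in KO-to-WT, 1097 in WT-to-KO and 869 in WT-to-WT. Rsad2, the antiviral protein viperin, was 984 in intact KO, 997 in intact WT, 658 in KO-to-KO, 280.4 in KO-to-WT, 394 in WT-to-KO and 689 in WT-to-WT. Isg15 was highest in KO-to-KO and Rsad2 in both intact libraries. Intact KO was highest for both without cells over 10000 UMIs, at 2534 of Isg15 and 2224 of Rsad2. All 3 KO hosts were above all 3 WT hosts for Isg15 (over all genes 4.32% did so), which did not pass (edgeR, log2 0.93, SE 0.37, adjusted p = 0.831), and the hosts overlapped for Rsad2. Both were far above macrophages in every library, where Isg15 ran from 30.5 to 171 and Rsad2 from 10.5 to 57.6 CPM. In cells thinned to 1000 UMIs, Isg15 was found in 19.0% to 54.6% of neutrophils and in 5.79% to 9.53% of T cells.

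Cxcl10, the chemokine shared by both interferon types, was 476 in intact KO, 926 in intact WT, 1405 in KO-to-KO, 28.4 in KO-to-WT, 21.6 in WT-to-KO and 47.6 in WT-to-WT. Its UMIs sat in few cells: 1 cell held 84 of the 104 in intact KO, and 3 of the 4 positive cells in intact WT held over 10 UMIs each. In KO-to-KO, 89 of 303 cells held Cxcl10 and the top 5 cells held 37.3% of its UMIs. Cd274, the checkpoint ligand PD-L1, was 307 in intact KO, 241 in intact WT, 406 in KO-to-KO, 315 in KO-to-WT, 267 in WT-to-KO and 379 in WT-to-WT.

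For the host factor as a whole, 0 of the 30 interferon genes passed the edgeR test in all 6 libraries, against 0.0203% of all genes called (1 of 4932). In all 3 host pairs 12 of the 30 were higher with a KO host and 0 lower; over all genes 14.2% were higher and 14.9% lower. Their median log2 fold change was 0.78 against -2.06e-04 for all genes, with pair medians of 0.23 (intact), 1.47 (KO marrow) and 0.15 (WT marrow). Without cells over 10000 UMIs, 20 of 30 were higher in all 3 pairs, as were 800 of all 4932 genes. Irf7, the amplifier of type I interferon, came nearest (log2 1.11, SE 0.33, adjusted p = 0.538).

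Gbp2 and Irf1, whose KO-to-KO value enters both factors, had wide errors (log2 1.84, SE 2.03, adjusted p = 0.979 for host; log2 1.07, SE 1.37, adjusted p = 0.987 for host). In the 4 transplanted libraries alone, 10 of the 30 passed higher and 0 lower with a KO host, where 0.88% of all genes passed higher and 1.31% lower, and 3 passed higher with KO marrow, where 0.601% did. That fit has 1 residual degree of freedom, and with no term for the combination of marrow and host it spreads a high value in KO-to-KO over both factors.

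Antigen-presentation genes of class I, whose products show peptides from inside the cell, were highest in KO-to-KO for 13 of the 14 listed, against 11.9% of all genes; the exception, Nlrc5, was highest in intact KO. The count was 10 of 14 without cells over 10000 UMIs (11.7% of all genes). H2-K1, a classical class I chain, was 760.0 in intact KO, 319.8 in intact WT, 1496 in KO-to-KO, 619.7 in KO-to-WT, 636 in WT-to-KO and 552 in WT-to-WT. Psmb8, an immunoproteasome subunit, was 229 in intact KO, 97.8 in intact WT, 514 in KO-to-KO, 138 in KO-to-WT, 166 in WT-to-KO and 113 in WT-to-WT. For both genes all 3 KO hosts lay above all 3 WT hosts, narrowly so for H2-K1 under WT marrow. Of 14 class I genes, 11 were higher with a KO host in all 3 pairs and 0 lower, 8 were higher with KO marrow in all 3 pairs (over all genes 11%) and 0 lower (14.6%). None passed the edgeR test in either factor. The nearest were Tap2, a peptide transporter subunit (log2 1.57, SE 0.45, adjusted p = 0.501 for host), and H2-Q7, a non-classical chain (log2 1.42, SE 0.42, adjusted p = 0.538 for host). In the transplanted libraries alone 5 of 14 passed higher with a KO host, as 0.88% of all genes did.

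Class II genes, which mark professional antigen-presenting cells, were higher with a KO host in all 3 pairs for 7 of 7 and with KO marrow for 7 of 7. Over all genes 14.2% were higher in all 3 pairs with a KO host and 11% with KO marrow. Cd74, the invariant chain, was 2252 in intact KO, 444 in intact WT, 1673 in KO-to-KO, 453 in KO-to-WT, 668 in WT-to-KO and 238 in WT-to-WT. H2-Aa was 1158 in intact KO, 203 in intact WT, 933 in KO-to-KO, 213 in KO-to-WT, 322 in WT-to-KO and 137 in WT-to-WT. The cell with most held 366 of 492 Cd74 UMIs and 196 of 253 H2-Aa UMIs in intact KO, and 116 of 278 Cd74 UMIs in WT-to-KO. Cd74 (edgeR, log2 1.56, SE 0.29, adjusted p = 0.16 for host) and H2-Aa (log2 1.60, SE 0.32, adjusted p = 0.185) did not pass. DESeq2, with all members, called both higher (adjusted p = 0.00348 and 0.0147). Without cells over 10000 UMIs the edgeR host values fell to log2 0.998 for Cd74 (adjusted p = 0.694) and 1.09 for H2-Aa (adjusted p = 0.59).

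These levels are near those that macrophage RNA alone would give. At the C1q fraction macrophage RNA would bring 2016 in intact KO, 261 in intact WT, 1184 in KO-to-KO, 466 in KO-to-WT, 529 in WT-to-KO and 233 in WT-to-WT of Cd74. At the fraction of the other macrophage markers it would bring 3044 in intact KO, 549.6 in intact WT, 2334 in KO-to-KO, 870.3 in KO-to-WT, 908 in WT-to-KO and 383 in WT-to-WT. The measured values lay between these bounds or below them in 6 of 6 libraries, and the part of macrophage RNA in the difference between hosts was not tested. The measured Cd74 value of intact KO came mainly from 1 cell, with 366 of the 492 UMIs. Without cells over 10000 UMIs intact KO held 1096 of Cd74, and 6 of 7 class II genes were then higher with a KO host in all 3 pairs. Under that filter 800 of all 4932 genes were. Ciita, the class II master regulator, was 18.3 in intact KO, 7.53 in intact WT, 9.89 in KO-to-KO, 2.03 in KO-to-WT, 4.80 in WT-to-KO and 0 in WT-to-WT, from 0 to 7 UMIs a library.

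**Figure D3:**
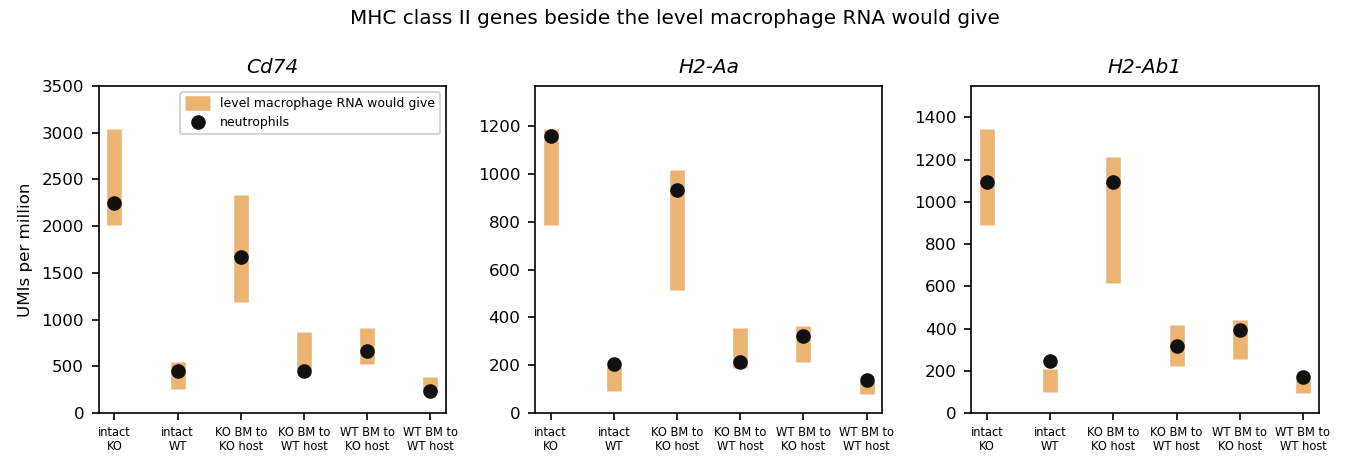
CPM of Cd74, H2-Aa and H2-Ab1 in neutrophils of each library (circles) beside the range that macrophage RNA would bring (bars, from the C1q fraction to the fraction of the other macrophage markers); the axis starts at 0. For Cd74 the neutrophil value, such as 1673 in KO-to-KO, lies within or under that range in each library.

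Across all 4932 genes tested and 6 libraries, 1 gene was called by host genotype and 0 by marrow genotype (edgeR, adjusted p under 0.05), with 265 and 157 at an unadjusted p under 0.05. The called gene, Prok2, fell in KO hosts. Prok2 encodes prokineticin 2, a secreted peptide that myeloid cells make and that promotes vessel growth. It was 0 in intact KO, 26.3 in intact WT, 0 in KO-to-KO, 46.7 in KO-to-WT, 2.40 in WT-to-KO and 60.4 in WT-to-WT. Every KO-host library was below every WT-host library (log2 -5.56, SE 0.75, edgeR adjusted p = 0.0416).

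The change rested on few molecules and few cells. KO hosts held 1 Prok2 UMI and WT hosts 82, so that the pooled KO-host level was 1.47% of the WT-host level (exact 95% counting interval 0.0368% to 8.42%). A count of 0 allows up to 13.7 CPM in intact KO and 4.24 in KO-to-KO. The 82 UMIs lay in 22 of 504 WT-host neutrophils, and in intact WT all 7 lay in 1 cell; in KO hosts 1 of 446 neutrophils had a Prok2 UMI. Without KO-to-KO or without KO-to-WT the call was lost. No gene was called without the transplantation term, with an S100a8 and S100a9 share of at least 5%, or with at least 2 UMIs of Csf3r, Cxcr2 and Retnlg. The Prok2 call held in 14 of 19 alternative settings, with log2 values from -7.51 to -4.68. The setting of at least 500 UMIs per cell left out no member and so repeats the main fit. Macrophages held next to none (0 to 0.136 CPM).

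Heat shock genes, which encode chaperones of unfolded proteins, were lower with a KO host in each pair. Hspa1a, the inducible Hsp70, was 13.7 in intact KO, 41.4 in intact WT, 117 in KO-to-KO, 465 in KO-to-WT, 108 in WT-to-KO and 631 in WT-to-WT. Hsp90aa1, the inducible Hsp90, was 298 in intact KO, 598 in intact WT, 384 in KO-to-KO, 1595 in KO-to-WT, 375 in WT-to-KO and 1300.1 in WT-to-WT. For Hsp90aa1 all 3 KO hosts were below all 3 WT hosts (over all genes 4.38% were). For Hspa1a the KO and WT hosts overlapped, since intact WT was below both KO-host chimeras. Neither passed the test (edgeR, Hspa1a log2 -2.21, SE 0.34, adjusted p = 0.0666; Hsp90aa1 log2 -1.77, SE 0.30, adjusted p = 0.0843).

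Without cells over 10000 UMIs both passed lower (edgeR, Hspa1a log2 -2.23, adjusted p = 0.00609; Hsp90aa1 log2 -1.91, adjusted p = 0.00368), where 0.0681% of 4405 genes were called. DESeq2 also called both lower, and so did edgeR in the 4 transplanted libraries alone. The near-identical copy Hspa1b was 9.16 in intact KO, 18.8 in intact WT, 151 in KO-to-KO, 333 in KO-to-WT, 62.4 in WT-to-KO and 342 in WT-to-WT, and Dnajb1, an Hsp70 co-chaperone, was 22.9 in intact KO, 41.4 in intact WT, 57.9 in KO-to-KO, 95.5 in KO-to-WT, 33.6 in WT-to-KO and 88.3 in WT-to-WT. Both were lower with a KO host in each pair. Hspa8, the constitutive Hsp70, was 650.1 in intact KO, 715 in intact WT, 569 in KO-to-KO, 648 in KO-to-WT, 617 in WT-to-KO and 754 in WT-to-WT, also lower with a KO host in each pair but by less (edgeR, log2 -0.19, SE 0.28, adjusted p = 0.987), and its intact pair turned to 465 in KO against 361 in WT without cells over 10000 UMIs.

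Hspa1a was carried by a minority of cells. Members with at least 1 UMI numbered 3 of 35 in intact KO, 4 of 59 in intact WT, 12 of 303 in KO-to-KO, 28 of 169 in KO-to-WT, 14 of 108 in WT-to-KO and 46 of 276 in WT-to-WT. Cells with 5 or more Hspa1a UMIs numbered 0 in intact KO, 1 in intact WT, 2 in KO-to-KO, 9 in KO-to-WT, 2 in WT-to-KO and 19 in WT-to-WT, and held 87.3% of the Hspa1a UMIs in KO-to-WT and 94.1% in WT-to-WT. In all other members Hsp90aa1 still stood at 298 in intact KO, 599 in intact WT, 385 in KO-to-KO, 1239 in KO-to-WT, 335 in WT-to-KO and 928 in WT-to-WT. Macrophage Hsp90aa1 was 427 in intact KO, 343 in intact WT, 386 in KO-to-KO, 404 in KO-to-WT, 357 in WT-to-KO and 442 in WT-to-WT. Its KO and WT hosts overlapped. The test of the difference between neutrophils and macrophages gave log2 -1.71 for Hsp90aa1 and -1.68 for Hspa1a, which did not pass (limma adjusted p = 0.565 for both).

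**Figure D4:**
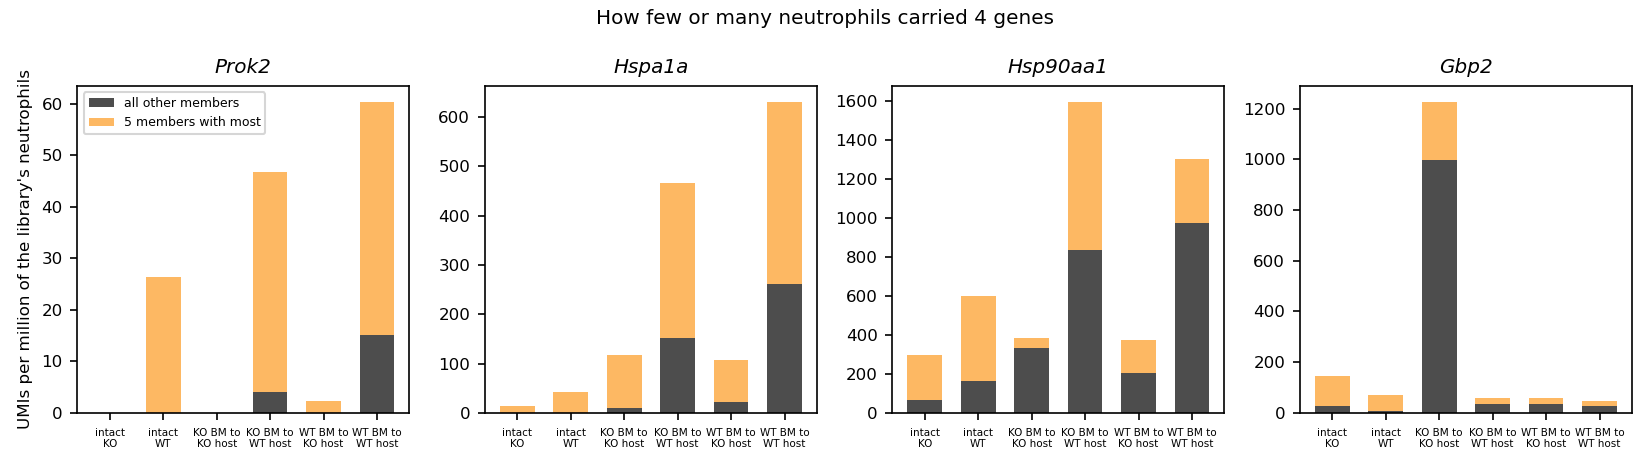
CPM of Prok2, Hspa1a, Hsp90aa1 and Gbp2 in each library's neutrophils (linear axes from 0), split into the part in the 5 cells with most of that gene (light) and the part in all other members (dark). The 5 cells hold 91.3% of Prok2 in KO-to-WT and 75% in WT-to-WT, and 18.8% of Gbp2 in KO-to-KO.

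Heat shock and immediate early genes are also induced when tissue is dissociated, and 16 such genes were listed. With a KO host 8 were lower in all 3 pairs (over all genes 14.9%) and 0 higher (14.2%). The list's median log2 fold change was -0.49, with pair medians of -0.98 (intact), -0.58 (KO marrow) and -0.10 (WT marrow). None passed in all 6 libraries. Jun, a subunit of the AP-1 transcription factor, was 206 in intact KO, 625 in intact WT, 454 in KO-to-KO, 975.3 in KO-to-WT, 543 in WT-to-KO and 1012 in WT-to-WT, lower with a KO host in each pair (edgeR, log2 -1.12, SE 0.27, adjusted p = 0.323). Fos, its partner, was 911 in intact KO, 3036 in intact WT, 1156 in KO-to-KO, 1969 in KO-to-WT, 2790.2 in WT-to-KO and 1939 in WT-to-WT, and was higher with a KO host under WT marrow.

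Of 20 chemokine and cytokine genes, 4 were higher and 3 lower with a KO host in all 3 pairs, near the shares over all genes (14.2% and 14.9%), and 0 passed. Ccl3, a chemokine for macrophages and T cells, was 462 in intact KO, 926 in intact WT, 1297 in KO-to-KO, 2861 in KO-to-WT, 1268 in WT-to-KO and 3029 in WT-to-WT, lower with a KO host in each pair with the KO and WT hosts apart in the chimeras (edgeR, log2 -1.17, SE 0.27, adjusted p = 0.323).

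Ccl5 was 165 in intact KO, 3.76 in intact WT, 139.9 in KO-to-KO, 16.3 in KO-to-WT, 14.4 in WT-to-KO and 4.65 in WT-to-WT. It was higher with KO for host (log2 2.61, SE 0.50, adjusted p = 0.161) and for marrow (log2 2.78, SE 0.50, adjusted p = 0.343) but passed neither edgeR test, and 28 of the 36 UMIs in intact KO came from 1 cell. Macrophage RNA would bring 26.1 to 51.4 of its 139.9 in KO-to-KO. Ccl5 ran from 715 to 2320 in T cells and from 33.3 to 1078 in monocytes. The neutrophil level was above that of macrophages or of monocytes in 0 of 6 libraries. T cells were most numerous in KO-to-KO (1703) and intact KO (802), the libraries with most Ccl5 in members. The part of T cell or monocyte RNA in these values was not tested. Tnf was 36.6 in intact KO, 90.3 in intact WT, 326 in KO-to-KO, 109.7 in KO-to-WT, 36.0 in WT-to-KO and 179 in WT-to-WT, highest in KO-to-KO, and Cxcl1, a ligand of Cxcr2, was 9.16 in intact KO, 26.3 in intact WT, 70.6 in KO-to-KO, 144 in KO-to-WT, 52.8 in WT-to-KO and 89.5 in WT-to-WT. Cxcl1 was lower with a KO host in each pair. Its mean was 65.5 in neutrophils, 216 in macrophages and 162 in monocytes, and neutrophils were above either class in 0 of 6 libraries. The part of RNA from other cells in Cxcl1 was not tested.

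Hypoxia and lipid storage genes are active in tumour neutrophils. In the chimeras Hilpda and Plin2 were lower with a KO host and also with KO marrow. Hilpda, a hypoxia-induced inhibitor of fat breakdown, was 609 in intact KO, 463 in intact WT, 517 in KO-to-KO, 1561 in KO-to-WT, 1479 in WT-to-KO and 3113 in WT-to-WT. Plin2, the coat protein of lipid droplets, was 343 in intact KO, 369 in intact WT, 271 in KO-to-KO, 748 in KO-to-WT, 504 in WT-to-KO and 1392 in WT-to-WT. Within each marrow genotype the KO host was the lower, KO-to-KO was the lowest chimera, WT-to-WT the highest, and the intact pair went the other way for Hilpda. In the transplanted libraries alone both passed lower with a KO host, as 1.31% of all genes did (edgeR, Hilpda log2 -1.37, adjusted p = 0.00113, and Plin2 log2 -1.51, adjusted p = 1.77e-04). With KO marrow Hilpda also passed lower in that fit, as 0.215% of all genes did (edgeR, log2 -1.23, adjusted p = 0.0159). Plin2 did not pass by marrow (edgeR, log2 -0.87, adjusted p = 0.225). Of the 22 genes of sugar use and hypoxia, 4 were lower with a KO host in all 3 pairs, near the share over all genes (14.9%). None was higher in all 3 pairs (over all genes 14.2%), and the list median was -0.22. Without cells over 10000 UMIs 8 of the 22 were lower in all 3 pairs, as were 632 of all 4932 genes.

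Among 20 genes tied to suppressive or tumour-adapted neutrophils, 2 were higher and 5 lower with a KO host in all 3 pairs, against 14.2% and 14.9% of all genes, and 0 passed. Spp1, the matrix protein osteopontin, was 485 in intact KO, 982 in intact WT, 733 in KO-to-KO, 1215 in KO-to-WT, 579 in WT-to-KO and 1622 in WT-to-WT and lower with a KO host in each pair (edgeR, log2 -1.10, SE 0.31, adjusted p = 0.477); macrophage RNA would bring 91.0 to 179 of its KO-to-KO value. Nos2, which makes nitric oxide, was 13.7 in intact KO, 7.53 in intact WT, 12.7 in KO-to-KO, 63.0 in KO-to-WT, 16.8 in WT-to-KO and 69.7 in WT-to-WT. Arg2 was 325 in intact KO, 512 in intact WT, 342 in KO-to-KO, 297 in KO-to-WT, 221 in WT-to-KO and 367 in WT-to-WT, and its KO and WT hosts overlapped.

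Of the 10 genes of the NADPH oxidase and oxidant defence, 8 were higher with a KO host in all 3 pairs and 0 lower, and with KO marrow 7 were higher and 1 lower. Over all genes 14.2% were higher and 14.9% lower with a KO host, and 11% and 14.6% with KO marrow. Without cells over 10000 UMIs 7 of the 10 were higher with a KO host and 5 with KO marrow. Of all 4932 genes, 800 and 669 were. Ncf1, the oxidase organiser, was 489.8 in intact KO, 147 in intact WT, 458 in KO-to-KO, 359.7 in KO-to-WT, 437 in WT-to-KO and 272 in WT-to-WT. Cybb, the catalytic subunit, was 599.7 in intact KO, 48.9 in intact WT, 208 in KO-to-KO, 161 in KO-to-WT, 175 in WT-to-KO and 81.3 in WT-to-WT. The intact KO value of Cybb was 186 without cells over 10000 UMIs, and the KO and WT hosts did not overlap in the chimeras for either gene. None of the 10 passed in either factor, and the list median was 0.49 for host.

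**Figure D5:**
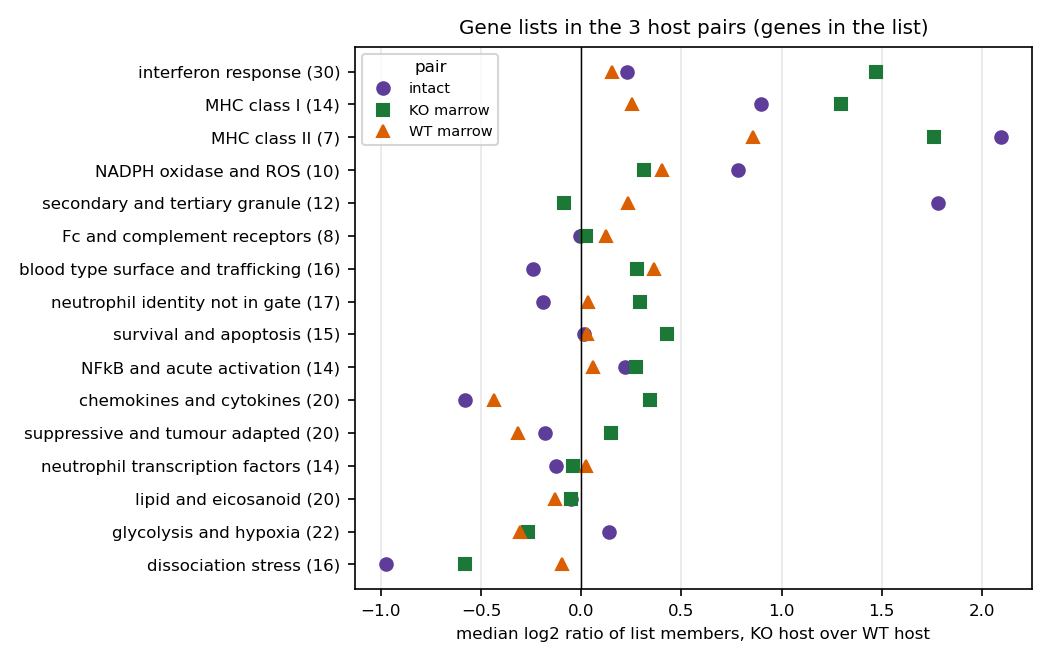
Median log2 ratio of KO over WT host over the members of 16 gene lists, one symbol per matched pair (circle intact, square KO marrow, triangle WT marrow); the number in brackets is the list's size. Under KO marrow class II (1.76), interferon (1.47) and class I genes (1.30) are farthest to the right, and the dissociation and heat shock list lies left of 0 in all 3 pairs.

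Beyond the lists, the genes whose smallest ratio over the 3 host pairs was largest (10 CPM added) were Plac8, Ly6c2, Cd74, Clec12a and H2-Aa among those higher, and Ankrd33b, Fnip2, Rybp and Hspa1a besides Prok2 among those lower; apart from Prok2 they are given as values that did not pass. Plac8 was 252 in intact KO, 75.3 in intact WT, 411 in KO-to-KO, 108 in KO-to-WT, 127 in WT-to-KO and 34.9 in WT-to-WT. Clec12a, an inhibitory lectin receptor of myeloid cells, was 91.6 in intact KO, 11.3 in intact WT, 63.6 in KO-to-KO, 20.3 in KO-to-WT, 67.2 in WT-to-KO and 23.2 in WT-to-WT. Fnip2, a partner of folliculin, was 54.9 in intact KO, 267 in intact WT, 36.7 in KO-to-KO, 106 in KO-to-WT, 50.4 in WT-to-KO and 153 in WT-to-WT. That each of the 3 separated KO from WT hosts within pairs was fixed by the way they were chosen. Fnip2 did not pass (edgeR, log2 -1.63, SE 0.31, adjusted p = 0.16).

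Ly6c2, a monocyte and immature myeloid surface protein, was 517 in intact KO, 26.3 in intact WT, 82.0 in KO-to-KO, 22.4 in KO-to-WT, 81.6 in WT-to-KO and 15.1 in WT-to-WT (edgeR, log2 2.58, SE 0.42, adjusted p = 0.0827). Its intact KO value came from the progenitor-type cells, and without cells over 10000 UMIs the intact pair stood at 10.3 in KO against 24.4 in WT, which reverses that pair. Ankrd33b was 91.6 in intact KO, 436 in intact WT, 32.5 in KO-to-KO, 114 in KO-to-WT, 156 in WT-to-KO and 481 in WT-to-WT, lower with KO in each host pair and each marrow pair. Rybp, a subunit of a Polycomb complex, was 64.1 in intact KO, 151 in intact WT, 66.4 in KO-to-KO, 163 in KO-to-WT, 84.0 in WT-to-KO and 201 in WT-to-WT.

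By marrow genotype no gene was called by edgeR or DESeq2 in all 6 libraries, against 157 at an unadjusted p under 0.05. By the same rule of the smallest pair ratio the genes were Saa3, Plac8, Ggct, Dusp2 and Il2rg (higher with KO marrow) and Ankrd33b, Mtdh, Ccdc126, Klhdc4 and Pcyt1a (lower). That rule fixed their direction in each marrow pair. Saa3, an acute phase protein, was 82.4 in intact KO, 11.3 in intact WT, 59.3 in KO-to-KO, 239.8 in KO-to-WT, 4.80 in WT-to-KO and 72.0 in WT-to-WT: higher with KO marrow in each pair and lower with a KO host in both chimera pairs. Dusp2, a phosphatase of MAP kinases, was 105 in intact KO, 15.1 in intact WT, 249 in KO-to-KO, 154 in KO-to-WT, 103 in WT-to-KO and 48.8 in WT-to-WT, higher with KO marrow in each pair (edgeR, log2 1.56, SE 0.30, adjusted p = 0.366). In the 4 transplanted libraries alone 38 genes passed (28 higher and 10 lower, 0.816% of 4659), among them these 2, Plac8, Ggct and Il2rg higher and Ankrd33b, Ccdc126 and Mtdh lower.

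By host genotype the 4 transplanted libraries alone gave 102 called genes (41 higher and 61 lower, 2.19% of 4659), and without cells over 10000 UMIs 146. Leaving out intact KO gave 103 calls and leaving out intact WT 106, while leaving out KO-to-KO or KO-to-WT gave 0. Set against macrophages of the same library, the host and marrow changes of neutrophils differed for 0 genes each (limma with 2 residual degrees of freedom; 281 and 196 at an unadjusted p under 0.05).

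With cells over 10000 UMIs left out, the intact pair kept its direction for Mtdh, Snd1, Spp1, Ccl3, Jun, Ncf1, Clec12a, Plac8, Fnip2, Rybp, Ankrd33b, Saa3 and Dusp2. Mtdh was then 20.7 in KO and 53.7 in WT, and Saa3 186 and 14.6. The ratio narrowed for Fnip2 (124 in KO and 322 in WT) and Ankrd33b (197 and 566). The values came close for Spp1 (528 and 605), Ccl3 (1045 and 1200.2) and Snd1 (41.4 and 43.9).

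Retnlg, the resistin-like peptide of blood neutrophils and one of the genes that chose the members, varied among them. It was 1767 in intact KO, 3443 in intact WT, 1454 in KO-to-KO, 3017 in KO-to-WT, 3729 in WT-to-KO and 4481 in WT-to-WT, and was found in 47.9% of KO-to-KO members against 64.5% to 76.1% in the other chimeras. Members of at most 10000 UMIs with and without a Retnlg UMI were compared within each library as a description. Their median depths were close (2201 against 1956 UMIs in KO-to-KO). Of 1376 genes over 100 CPM, 14.8% were higher without Retnlg in all 6 libraries and 11.6% higher with it; of 185 list genes at that level the shares were near these, at 14.6% and 12.4%.

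Among the list genes higher without Retnlg were the adhesion molecule Icam1 (mean log2 ratio 1.95), the growth factor Csf1 (1.40), Tnf (1.23), Ccl3 (1.01), Il1b (0.68) and the survival genes Bcl2a1a, Bcl2a1b and Bcl2a1d. Higher with Retnlg were the glucose transporter Slc2a3 (-1.62), the iron-binding granule protein Lcn2 (-1.21), S100a8 (-0.80) and S100a9 (-0.89). For Gbp2 4 libraries were higher without Retnlg and 2 with it. In KO-to-KO it stood at 902 in cells with Retnlg and 1534 in cells without, both above the other chimeras. A member without Retnlg had to hold Csf3r or Cxcr2, so the rule shapes this split.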

How the data were processed

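Droplet 3' RNA counts of 6 libraries were used, 1 library a group. The deposited values are whole UMI counts per gene and cell, made by the authors with Cell Ranger 7.0.1 (intact) or 6.1.1 (transplanted), per the file headers, on mm10; Seurat is named in the submitters' processing notes, and the labels do not state whether introns were counted. The 30406 genes shared by all files were kept. Doublets were not removed.

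Member cells' counts were summed per library and fitted in R 4.3.3 by edgeR 4.0.16 (TMM, filterByExpr, quasi-likelihood test). The model held host genotype, marrow genotype and transplantation. This leaves 2 residual degrees of freedom, and the intact pair, which differs in both genotypes, enters both. SE is the absolute log2 fold change over the square root of F. P-values are Benjamini-Hochberg adjusted over all 4932 genes tested. Since nothing ties a library to separate mice, they measure only the spread between these libraries. Differences from macrophages used limma 3.58.1, shares an exact permutation test (scipy 1.17.1, Python 3.11.15), and figures matplotlib 3.10.9. DESeq2 1.42.0 and other settings served as alternatives, and the code was tested on simulated data. Total counts of members and their precision limit low genes most.

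Any listed gene could be named. Beyond the lists, up to 10 genes past the threshold with 1 sign in all 3 pairs were named per direction. Where fewer than 10 passed, up to 5 were named by the largest minimum of their 3 pair ratios, from genes with 100 UMIs or more. Mtdh and the 10 most abundant genes were added. The members and lists were chosen with earlier results of these data known. Some listed genes are not reported here.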

Additional observations from a re-analysis of the deposited data

Results flagged for a closer look

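The neutrophil share of kept cells went opposite ways in pairs under the same contrast. With a KO host the log2 ratio over the WT host was 0.37 under KO marrow and -1.18 under WT marrow. With KO marrow the log2 ratio over WT marrow was 0.99 in KO hosts and -0.56 in WT hosts. These are the same 4 transplanted libraries read in both directions, each side is 1 library, and the difference was not tested. With macrophages left out of the kept cells, the share was lower with a KO host under both marrow genotypes. The marrow pairs still went opposite ways.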

How the results depend on the processing

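No paired analysis was possible because the labels give no replicate numbers and each group holds 1 library; the pairs above match libraries by genotype and transplantation. For the neutrophil share the host ratio turned to 0.29 without intact KO, and over all libraries left out in turn it ran from -1.21 to 0.29. The marrow ratio turned to 0.27 with a C1q share under 0.1%, to 0.80 without intact KO and to 0.49 without WT-to-WT, and ran from -0.69 to 0.80 over the libraries left out. The count of genes called by host, 1, became 3 with DESeq2 size factors, 4 with library totals, 31 with no filter, 0 without the transplantation term, 5 without the other genotype term, 102 in the transplanted libraries alone, 0 with an S100 share of at least 5%, 0 with at least 2 marker UMIs, 4 with a C1q share under 0.1%, 6 with DESeq2, and 0 to 106 with 1 library left out. In alternatives chosen after seeing the data it was 3 without cells over 10000 UMIs, 2 without the progenitor-type cells, and 146 in the transplanted libraries without cells over 10000 UMIs. The count called by marrow, 0, became 13 with no filter, 38 in the transplanted libraries alone, 3 with a C1q share under 0.1%, 40 in those libraries without cells over 10000 UMIs, and 0 to 43 with 1 library left out. Differences from macrophages, 0, ran from 0 to 92 for host and 0 to 48 for marrow with 1 library left out. Single genes that changed sign were Gbp2 by host (-0.86 without KO-to-WT), Irf1 by host (-0.01 without KO-to-KO and -1.07 without KO-to-WT) and Gbp2 by marrow (-0.75 without WT-to-KO); with 1 library left out they ran from -0.86 to 3.91, -1.07 to 2.78 and -0.75 to 4.00. The cause of these changes was not tested. The intact libraries hold 35 and 59 members, and genes of a few UMIs, Prok2 among them, are limited by depth.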

Other observations

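Runx1, a transcription factor of blood cell development, was read at 513 CPM in the neutrophils of intact KO mice, at 557 CPM in those of intact WT mice and at 128 to 142 CPM in the 4 transplanted libraries. The software version differs in the same way between these libraries, so the effects of transplantation and of processing on this gene cannot be told apart.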
